A study of Mus musculus with 24 samples.

Results

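The Agilent mouse array used here carries 16194 probes that have no gene name and are named instead by a stretch of the mouse genome (build mm9, per the file headers), with an ending F or R after the coordinates. The transcripts described below are the 4771 of these region probes (29.5%) that were selected on the measured signal: the scanner software had to mark a probe as well above background on each of the 3 arrays of 1 group or more, out of 8 groups. They stood on 2372 combinations of region and ending, on 1961 regions, which merged into 1364 separate loci where regions overlapped. Under the same detection rule, 55.4% of the 39487 other probes on the array passed. The set is known by the working name of unnamed intergenic transcripts, but gene coordinates in mm9 were not used here, so that the position of a region relative to genes was not checked. The files do not spell out F and R, which are read here as labels of the forward and reverse strand. As the probes carry no gene names, no function is assigned to any of them.

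Mammalian genomes are transcribed far beyond their protein-coding genes, and many of the resulting long noncoding RNAs come from stretches between genes. Some act in the nucleus on nearby or distant genes, others serve as scaffolds for proteins, and for most no function is known. In dendritic cells, unmethylated CpG DNA is sensed in endosomes by Toll-like receptor TLR9, which signals through the adaptor MyD88 to NF-kB and interferon regulatory factors. Irf5 is one of these transcription factors, and Lyn is a Src-family tyrosine kinase that acts in both activating and inhibitory signalling of immune cells.

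The cells were bone marrow cells grown with Flt3 ligand at 100 ng/ml for 9 days, which gives mixed cultures of plasmacytoid and conventional dendritic cells. They came from mice of 4 genotypes, wild type (WT), knockout of Irf5 (Irf5-KO), knockout of Lyn (Lyn-KO) and knockout of both (Lyn/Irf5-DKO, here DKO), all on a C57BL/6 background, and were left unstimulated or stimulated with CpG-B oligonucleotide 1668 at 150 nM for 6 h. Each of the 8 groups had 3 arrays, described by the submitters as biological triplicates, and total RNA was hybridised in 1 colour. The labels give neither the age or sex of the mice nor whether animals were pooled. Signals are given as log2 of the processed signal after subtraction of the 75th percentile of its array, and every difference is a log2 change ± SE over 3 arrays per group unless stated otherwise. In bulk cultures, fewer cells of a type and less RNA per cell cannot be told apart.

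Across the series, 41.0% to 53.8% of spots per array passed the background flag and none was saturated. All 7 plasmacytoid and 8 of the 9 conventional dendritic cell markers were well above background on every array, and the array means over the 7 and the 9 genes were 4.43 to 5.89 and 3.01 to 4.05. The probe for Lyn was lower in Lyn-KO than in WT cells, by -1.82 ± 0.09 without and -2.44 ± 0.09 with CpG-B (limma adjusted p 1.0e-09 and 7.5e-12). The probe for Irf5 was not called lower in unstimulated Irf5-KO cells (-0.30 ± 0.09, limma adjusted p 0.17) and was higher with CpG-B (0.64 ± 0.09, adjusted p 3.2e-05), and since the files do not place this probe inside or outside the deleted part, it checks nothing about the label. B cell markers separated the genotypes: the array mean over the 7 listed genes, of which 5 were well above background on all arrays, lay between 1.64 and 2.54 in unstimulated WT and Irf5-KO arrays but between -1.81 and -0.94 in Lyn-KO and DKO arrays. With CpG-B the same mean lay between 1.25 and 1.91 in WT and Irf5-KO and between -0.60 and 0.01 in Lyn-KO and DKO.

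Of the 4771 members, 2707 (56.7%) were well above background on all 24 arrays, against 78.9% of the other probes that passed. These 2707 probes belonged to 1557 combinations of region and ending on 1339 regions, and only they enter the tests below. A further 385 members were detected in 1 group only. Just inside the rule, those 385 had a mean log2 signal in their best group of -3.74 at the lowest, -2.97 at the median and -0.87 at the highest. Just outside it, 1148 region probes reached 2 of 3 arrays in a group at most, with -4.52, -3.27 and -1.05. The ranges on both sides of the rule overlapped widely. Among the 11423 region probes outside the set, 5842 were not well above background on any array.

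Detection varied with the condition and from array to array. The number of members detected on all 3 arrays was 3471 in unstimulated WT, 3743 in unstimulated Irf5-KO, 3212 in unstimulated Lyn-KO and 3469 in unstimulated DKO cells. With CpG-B it was 3977 in WT, 3920 (Irf5-KO), 4280 (Lyn-KO) and 3508 (DKO), so it was larger with CpG-B in each genotype, in DKO by little. Of the other probes, 19211, 19820, 18658 and 19296 were detected in these genotypes without and 20058, 20000, 20241 and 19043 with CpG-B, so that their number was smaller with CpG-B in DKO. A count over 3 arrays cannot exceed that of the array with the fewest, and single arrays differed widely. In unstimulated WT cells 3732, 6069 and 4308 region probes were well above background on replicates 1, 2 and 3. On replicate 2 more region probes passed without than with CpG-B in each genotype, in WT 6069 against 5531. Replicates 1 and 3 went the other way. Because detection defined the set, the counts above and below carry no test. Members detected in full only in groups with CpG-B numbered 821 (17.2%, against 7.14% of the other probes that passed), and 275 (5.76%, against 3.66%) only in unstimulated groups. As the strictest cases, 50 members were well above background on all 12 CpG-B arrays and on none of the 12 unstimulated ones (1.05%, against 0.562% of the other probes that passed), and 25 showed the reverse (0.524%, against 0.384%).

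**Figure D1:**
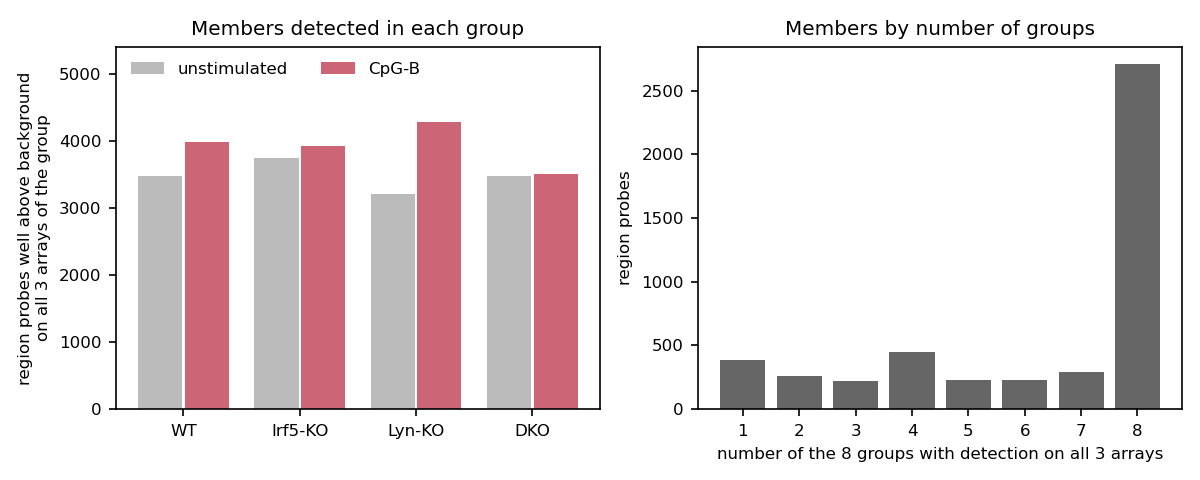
Left, the number of region probes well above background on all 3 arrays of each group, unstimulated (grey) and with CpG-B (red), by genotype. Right, the 4771 members by the number of groups in which they were detected on all 3 arrays; 2707 were detected in all 8 groups and 385 in 1.

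The share of region probes that became members ranged from 22.8% on chromosome 9 to 37.6% on chromosome 19. By the length of the region it was 24.9% up to 1000 bp, 33.1% between 1000 and 3000 bp and 23.9% above 100000 bp. F and R probes were detected at 27.9% and 31.1%. On the 1067 regions with probes of both endings, members of both were present on 411, of F only on 224, of R only on 230 and of neither on 202.

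Each probe binds with its own strength, so signals are compared here between sets of probes and not between single ones. Over the 24 arrays, the 2707 tested probes had a median level of -0.64 with quartiles of -1.56 and 0.77, while the other 14387 features on all arrays had a median of 1.58. A named gene entered with its probe of highest mean, while each region probe stood alone. This raises the level of the other features by construction, and its part in the spreads and shares called was not tested. The median residual SD between arrays of a group was 0.149 for region probes and 0.107 for the other features. At matched levels the residual SDs were 0.156 and 0.152 between -2 and 0, 0.124 and 0.105 between 0 and 2, and 0.115 and 0.0840 above 2, so the sets were close at low levels and apart at high ones.

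With the scaling used, CpG-B changed most of the tested region probes in WT cells, about equally in both directions. Of the 2707 probes, 741 rose and 776 fell, in all 1517 (56.0%) at a limma adjusted p under 0.05, where 70.9% of all 17094 features on all arrays were called (30.8% higher, 40.1% lower). A called change of at least 2-fold was seen for 222 that rose (8.20%, against 10.8% of all features) and 220 that fell (8.13%, against 12.3%), and the median change was 0.02, against -0.07 over all features. The share called among region probes was lower at each level: between 0 and 2 it was 62.0% of region probes and 76.5% of other features, and above 2 it was 61.1% and 78.7%. The list of named long noncoding RNAs, taken as a comparator, had 19 members on all arrays, of which 3 rose and 10 fell. Among them Mir22hg rose by 1.94 ± 0.11, Mir17hg, the host transcript of the miR-17-92 cluster, by 0.82 ± 0.11 and Neat1, the scaffold of nuclear paraspeckles, by 0.70 ± 0.06, while Malat1, an abundant nuclear RNA, changed by -0.74 ± 0.09 and the imprinted Peg13 by -3.16 ± 0.07.

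About as many region probes responded in each genotype. In Irf5-KO cells 728 region probes rose and 697 fell with CpG-B, where 69.3% of all features were called (31.8% higher, 37.5% lower). In Lyn-KO cells 846 rose and 689 fell (71.1% of all features, 32.8% higher and 38.4% lower), and in DKO cells 960 rose and 663 fell (73.2%, 35.2% and 38%). The median change over region probes was 0.04 (Irf5-KO), 0.09 (Lyn-KO) and 0.13 (DKO), against -0.05, -0.03 and -0.01 over all features. A total of 515 probes (19.02%) rose in all 4 genotypes and 469 (17.3%) fell in all 4, against 23.2% and 29.0% over all features. Another 84 were called higher in at least 1 genotype and lower in another, and 605 were called in none. These were 3.103% and 22.3% of the region probes, against 4.25% and 12.4% of all features.

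The largest rise belonged to chr6:57583950-57624216, where both F probes were measured. Probe A_30_P01025357 read -2.24, -2.26 and -2.44 in unstimulated WT cells and 4.95, 4.94 and 4.77 with CpG-B. All 12 unstimulated arrays lay between -2.69 and -1.84, and all 12 CpG-B arrays between 4.46 and 4.95. They did not overlap, but non-overlap in the selecting contrast was a condition for naming tested probes, here and below. Its change was 7.20 ± 0.14 in WT, 7.16 ± 0.14 (Irf5-KO), 7.07 ± 0.14 (Lyn-KO) and 6.93 ± 0.14 (DKO) (limma adjusted p 5.6e-18 to 8.8e-18), and no difference between the responses of the genotypes was called. The other F probe of the region changed by 7.16 in WT cells. An R probe of the same region, A_30_P01018494, was well above background on all 12 CpG-B arrays and on none of the unstimulated ones. Its WT arrays read -5.12, -6.68 and -5.69 without and -0.08, -0.11 and -0.25 with CpG-B, a rise of at least 12.5-fold when the unstimulated arrays are set to the lowest signal that counted as measured.

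A second locus, chr1:175653557-175672031, had 11 tested probes on 3 overlapping regions, and all 11 rose. Within it, the 5 R probes of chr1:175654606-175672031 rose by 3.40 to 4.41. For A_30_P01018941 the WT arrays were at 0.66, 0.55 and 0.20 without and at 4.98, 4.95 and 4.72 with CpG-B, a change of 4.41 ± 0.15 (limma adjusted p 5.7e-15). For the F probe A_30_P01032247 the WT arrays went from -5.11, -4.47 and -5.53, not well above background, to -0.42, -0.47 and -0.69. A separate region at higher coordinates, chr1:175705225-175717250, had 5 R probes that rose by 2.24 to 3.53.

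At chr16:84702353-84710928 all 9 tested probes rose, on both endings and on 2 short regions inside it. The F probe A_30_P01024571 changed by 3.66 ± 0.15 and the R probe A_30_P01018526 by 3.36 ± 0.17 in WT cells (limma adjusted p 7.4e-14 and 1.2e-12). The WT arrays of the R probe read -0.47, -0.40 and -0.25 without and 3.09, 3.05 and 2.82 with CpG-B. DKO arrays reached 4.29, 4.50 and 4.50 with CpG-B, above every array of the other genotypes. Against WT with CpG-B the R probe was higher by 0.76 ± 0.17 (Irf5-KO), 0.63 ± 0.17 (Lyn-KO) and 1.45 ± 0.17 (DKO) (limma adjusted p 0.0021, 0.0092 and 9.4e-07), and its response in DKO exceeded that in WT by 1.70 ± 0.23 (adjusted p 1.9e-05).

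Further strong rises came from chr7:111530578-111539097, chr4:149445201-149445902 and chr11:119254413-119296960. On the first, A_30_P01024838 (R) changed by 3.89 ± 0.11 in WT cells, from -1.14, -1.46 and -1.68 to 2.59, 2.44 and 2.38 (limma adjusted p 6.3e-16). Another R probe there, A_30_P01027922, was measured only with CpG-B and rose at least 27.9-fold in WT and 54.3-fold in Irf5-KO cells. On the second, a region of 702 bp, the 3 F probes gave nearly the same WT response of 3.36 to 3.38. A_30_P01024344 went from 0.76, 0.69 and 0.82 to 4.13, 4.12 and 4.09 in WT cells, and reached 3.64, 3.46 and 3.67 in Irf5-KO cells. Its Irf5-KO response was smaller than that of WT by -0.97 ± 0.11 (limma adjusted p 7.9e-06). Part of this lay before the stimulus. All 3 F probes were called higher in unstimulated Irf5-KO than in WT cells, by 0.40 to 0.45. With CpG-B they differed by -0.55 to -0.52. With 1 array left out, the limma adjusted p of the unstimulated difference of A_30_P01024344 rose as high as 0.051.

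On chr11:119254413-119296960 the 2 tested F probes differed between genotypes before the stimulus, while the genotypes lay close together with CpG-B. The F probe A_30_P01019306 read -0.21, -0.99 and -1.56 in unstimulated WT cells, a wide spread, but -2.13 to -1.84 in Irf5-KO, -2.58 to -2.42 in Lyn-KO and -2.66 to -2.32 in DKO cells. With CpG-B all 12 arrays lay between 2.43 and 2.75. Unstimulated, it was lower than WT by -1.04 ± 0.21, -1.55 ± 0.21 and -1.55 ± 0.21 in Irf5-KO, Lyn-KO and DKO cells (limma adjusted p 0.022, 9.6e-05 and 8.7e-05). These 3 calls ended when only the arrays of each contrast were fitted (adjusted p 0.45, 0.12 and 0.096), and the Irf5-KO call ended without replicate 1 or replicate 2 of that group (adjusted p 0.11 and 0.082). Without WT replicate 1 or replicate 3 the Irf5-KO difference lay at -0.69 or -1.36. The Irf5-KO response exceeded that of WT by 1.04 ± 0.29 (adjusted p 0.024), a call that ended without unstimulated replicate 1 or CpG-B replicate 3 of Irf5-KO (adjusted p 0.064 and 0.055). The 3 F probes of the overlapping region chr11:119250824-119286324 were not called in any unstimulated mutant. They differed from WT by -0.43 to -0.20 (Irf5-KO), -0.49 to -0.03 (Lyn-KO) and -0.31 to -0.24 (DKO).

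Among the strongest falls was a pair of neighbouring regions on chromosome 8. At chr8:82836971-82849309 the R probe A_30_P01029486 fell from 2.43, 2.27 and 2.16 to -1.58, -1.88 and -1.89 in WT cells, by -4.07 ± 0.20 (limma adjusted p 1.1e-12), and a second R probe by -3.94. The R probe of the next region, A_30_P01026525 on chr8:82854412-82919089, was well above background in unstimulated WT cells at -0.80, -1.24 and -1.18 and not measured on any WT array with CpG-B, a fall of at least 6.69-fold. The 3 F probes of chr7:16633756-16634410, a region of 655 bp, changed by -3.29 to -2.85, and A_30_P01022977 among them went from 1.31, 1.56 and 1.33 to -1.79, -1.93 and -1.96.

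At chr11:95627874-95640824 all 7 tested probes fell, on both endings. The 4 F probes changed by -3.00 to -2.76 and the 3 R probes by -3.08 to -2.76. For the F probe A_30_P01023450 the WT arrays were at 2.91, 2.85 and 2.97 without and at 0.05, -0.31 and -0.01 with CpG-B. The fall was called in the other genotypes too, at -2.63 ± 0.08 (Irf5-KO), -2.74 ± 0.08 (Lyn-KO) and -2.76 ± 0.08 (DKO). In contrast, at chr3:21964899-21974524 the 4 R probes changed by -3.07 to -2.30 while the F probe A_30_P01022215 was near its detection limit and changed by -0.24, which was not called.

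Several transcripts were measurable in 1 condition only, and their folds are lower bounds against the lowest measured signal. A_30_P01028201 on chr2:128249388-128250301 (F) rose at least 31.1-fold in WT, to 1.08, 1.21 and 1.73, and was measured on none of the unstimulated WT arrays. It reached 0.85, 1.20 and 1.15 in Irf5-KO but only -0.55, -0.33 and -0.54 in Lyn-KO and -0.68, -0.98 and -0.53 in DKO cells. A_30_P01030110 on chr19:55715078-55776694 (R) rose at least 20.9-fold in WT, to 0.78, 0.83 and 0.19, and in Lyn-KO cells to 0.73, 0.63 and 0.76. Its arrays stayed at -2.02, -1.68 and -1.17 in Irf5-KO and at -1.64, -1.24 and -1.55 in DKO cells, without overlap with WT. Conversely, the 3 F probes of chr17:71183978-71185384 were measured on the unstimulated WT arrays and not with CpG-B, a fall of at least 15.4-fold for A_30_P01021048. In WT cells 122 members (2.56%, against 1.62% of the other probes that passed) were measured on 3 arrays with CpG-B and on none without, and 88 (1.84%, against 1.36%) the other way round. In Irf5-KO cells these counts were 145 (3.04%, against 1.71%) and 131 (2.75%, against 1.84%). They were 157 (3.29%, against 1.90%) and 66 (1.38%, against 1.43%) in Lyn-KO and 211 (4.42%, against 2.17%) and 154 (3.23%, against 2.23%) in DKO cells.

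**Figure D2:**
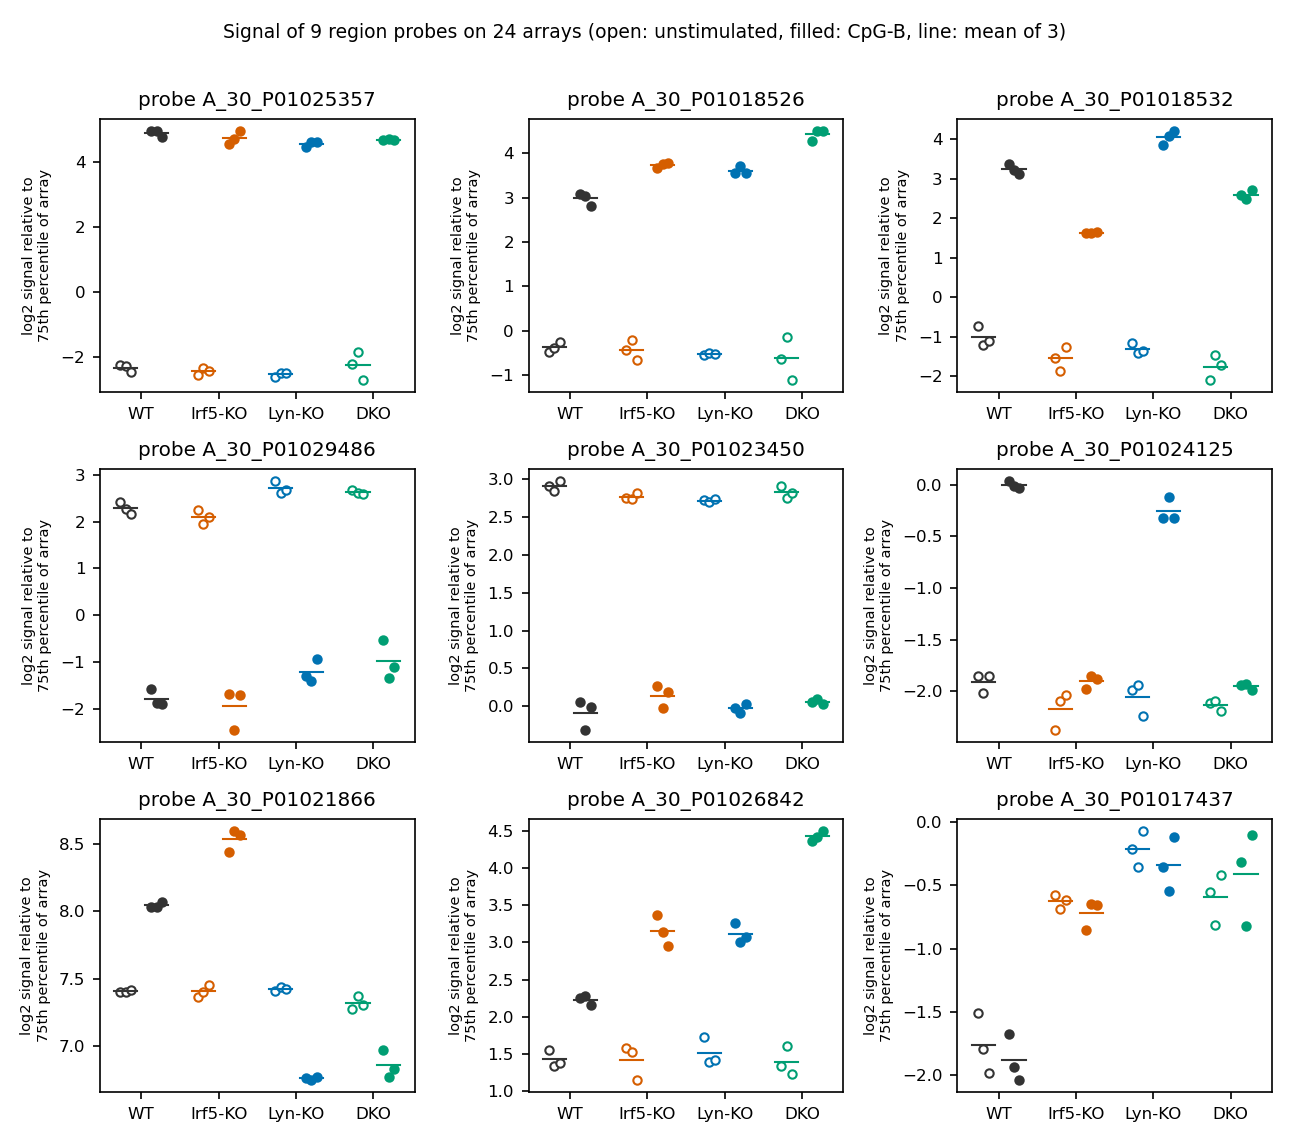
Log2 signal relative to the 75th percentile of the array for 9 region probes on all 24 arrays, by genotype; open points are unstimulated, filled points are with CpG-B, and lines are means of 3 arrays. The top row and the first 2 panels of the middle row show large responses to CpG-B, and the other 4 panels show genotype differences, such as A_30_P01021866, which read 8.03 to 8.07 in WT and 6.75 to 6.97 in Lyn-KO and DKO arrays with CpG-B.

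Several probes of a region and ending can be set against each other, although the files do not say whether they read the same transcript. Over 2090 pairs of probes with the same region and ending, from 617 combinations, the WT responses had a Pearson r of 0.84, and 77.1% of the pairs had the same sign. Between the medians of the F and R probes of 218 regions r was 0.36, with 62.8% of the same sign. These correlations are across probes of the same arrays and carry no test. Among the 617 combinations, 109 had every probe called higher, 133 every probe called lower, 38 held calls in both directions and 137 held none. For the 218 regions with both endings, all probes rose on 17, all fell on 8, and 11 had all probes of 1 ending higher and all of the other lower. Regions on the same chromosome less than 20 kb apart had an r of 0.26 over 82 pairs, those 20 to 100 kb apart 0.40 over 196 pairs, and those 100 kb to 1 Mb apart 0.18 over 1376 pairs.

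**Figure D3:**
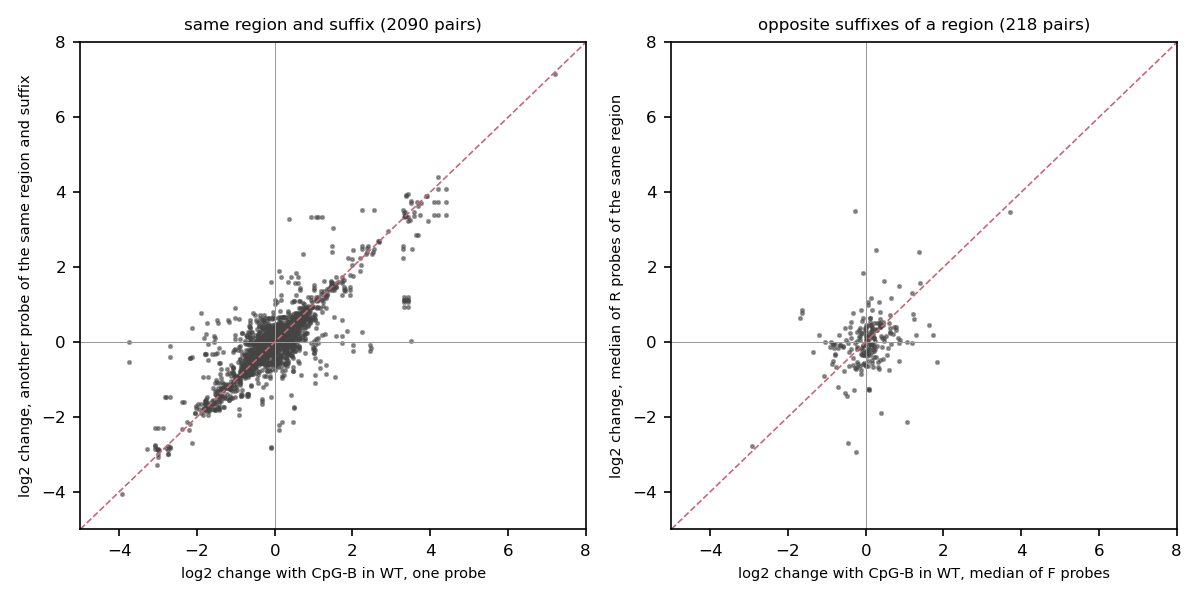
Log2 change with CpG-B in WT cells for pairs of region probes: left, 2090 pairs on the same region with the same ending; right, the medians of F and R probes on 218 regions. The dashed line marks equality; pairs with the same ending lie along it (r 0.84) and pairs of opposite endings scatter more widely (r 0.36).

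Merging overlapping regions gave 170 loci with at least 5 tested probes. In WT cells all probes rose at 14 of them and all fell at 9, while 55 held probes called in both directions and 7 held no call. Besides the loci above, all 9 probes fell at chr16:43623175-43642715, all 8 at chr14:21437920-21464655 and all 8 at chr1:141069536-141076841. A locus can hold discordant probes: on chr9:65376063-65390480 the R probe A_30_P01019072 changed by -3.76 ± 0.10 in WT cells, while the 3 R probes tested there ranged from -3.76 to 0.01. That probe read 2.20, 2.41 and 2.38 without and -1.49, -1.52 and -1.28 with CpG-B.

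Without stimulation, the region transcripts differed little between genotypes. Of 2707 probes, 13 differed between Irf5-KO and WT, 5 higher and 8 lower, where 0.614% of all features were called (0.275% higher, 0.339% lower). Between Lyn-KO and WT 70 differed, 32 higher and 38 lower (3.7% of all features, 1.71% and 1.99%), and between DKO and WT 102, 38 higher and 64 lower (5.61%, 2.79% and 2.82%). Scaled to the median of the probes measured on all arrays, the Irf5-KO split was 6 and 6. Between DKO and Irf5-KO 73 differed, 36 higher and 37 lower (4.43% of all features, 2.46% and 1.97%), and between DKO and Lyn-KO limma called none (0.105% of all features; 162 region probes at an unadjusted p under 0.05). Single arrays moved these counts, with 4 to 23 called for Irf5-KO, 48 to 80 for Lyn-KO and 46 to 149 for DKO against WT when 1 array was left out: the Irf5-KO count was 7 without WT replicate 1, 23 without WT replicate 3, and 4, 4 and 8 without Irf5-KO replicates 1, 2 and 3. The DKO count was 46 without WT replicate 1 and 66 without DKO replicate 1, and that of DKO against Irf5-KO was 47 and 40 without Irf5-KO replicates 1 and 2. Between DKO and Lyn-KO 1 probe was called without Lyn-KO replicate 2, and 2, 3 and 2 without DKO replicates 1, 2 and 3. The comparisons of mutants with WT share the WT arrays.

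A few probes stood apart before stimulation. On chr12:81221532-81232030 the F probe A_30_P01017437 was low in WT, at -1.51, -1.79 and -1.98, and lay between -0.82 and -0.07 on all 9 unstimulated mutant arrays. Its differences from WT were 1.14 ± 0.17 (Irf5-KO), 1.55 ± 0.17 (Lyn-KO) and 1.17 ± 0.17 (DKO) (limma adjusted p 0.0029, 8.2e-06 and 0.00016). CpG-B did not move it by a called amount in any genotype (-0.13 to 0.18), and with CpG-B the differences from WT were 1.16, 1.54 and 1.47. The added loss of Lyn in cells without Irf5 differed from the Lyn effect in cells with Irf5 by -1.52 ± 0.23 (adjusted p 0.013), the only such call among region probes without CpG-B (0.041% of all features called). When only the arrays of each contrast were fitted, this call and the Irf5-KO difference ended (adjusted p 0.058 and 0.099). The Irf5 dependence was called at 3 probes without WT replicate 3 and at 2 without Lyn-KO replicate 2. Only 1 of the 2 probes designed for this region and ending was a member.

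The R probe A_30_P01029599 on chr10:84005221-84022896 had a similar order, with WT at -1.11, -1.45 and -1.23 and Lyn-KO at -0.33, -0.56 and -0.45, a difference of 0.82 ± 0.16 (limma adjusted p 0.0048). On chr4:3437474-3438228 the difference ran the other way and was seen in both genotypes with the Lyn knockout. Whether this region lies near the targeted Lyn gene was not checked, as gene positions were not used here. The R probe A_30_P01018285 read -0.02, 0.00 and 0.14 in WT and -0.02, 0.01 and 0.10 in Irf5-KO, but -0.74, -0.91 and -0.78 in Lyn-KO and -0.92, -0.89 and -0.81 in DKO cells. It was lower than WT by -0.85 ± 0.07 and -0.91 ± 0.07 in the last 2 (limma adjusted p 1.6e-07 and 6.7e-08). With CpG-B, WT was at 0.41, 0.46 and 0.44, and the differences were -0.65 (Irf5-KO), -0.58 (Lyn-KO) and -1.44 (DKO).

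Likewise the R probe A_30_P01018252 on chr8:26212577-26218527 was at -1.48, -1.59 and -1.52 in WT and at -2.46, -2.33 and -2.69 in Lyn-KO cells, a difference of -0.97 ± 0.13 (limma adjusted p 0.00013). Its response to CpG-B had opposite signs: it fell in WT and Irf5-KO cells, by -0.70 ± 0.13 and -0.44 ± 0.13, and rose in Lyn-KO and DKO cells, by 0.49 ± 0.13 and 0.95 ± 0.13. The responses differed from WT by 1.19 ± 0.19 in Lyn-KO and 1.65 ± 0.19 in DKO cells (adjusted p 0.00031 and 2.0e-06). On chr1:85310067-85323941 the R probe A_30_P01023365 was lower than WT by -0.94 ± 0.16 in Lyn-KO and -1.10 ± 0.16 in DKO cells without stimulation, calls that ended when only the arrays of each contrast were fitted (adjusted p 0.15 and 0.079). It rose to between 1.21 and 1.61 on all 12 CpG-B arrays. B cell markers, as given above, moved with the same genotypes, with all 5 called lower in unstimulated Lyn-KO than in WT cells at a median of -4.36, and their part in these differences was not tested.

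Other unstimulated calls rested on single arrays. On chr3:9401052-9415202 the R probe A_30_P01021630 was called higher in Lyn-KO than in WT by 1.51 ± 0.35, with Lyn-KO arrays at -0.24, -1.89 and 0.40 and WT arrays at -2.05, -1.98 and -2.24. Leaving out Lyn-KO replicate 1 or 3 or WT replicate 3 ended the call (adjusted p 0.060, 0.088 and 0.059), and the other tested R probe of the region differed by -0.13, which was not called. On chr17:84470764-84486339 the R probe A_30_P01026610 differed between DKO and Irf5-KO by 1.20 ± 0.30, with 1 DKO array at 1.02 and the other two at -0.82 and -0.88. Without that array, DKO replicate 2, the difference was 0.57, and leaving out any of the Irf5-KO arrays ended the call (adjusted p 0.053 to 0.095). For A_30_P01023379 on chr7:113768215-113783490 the DKO difference of -0.85 ± 0.21 was not called without WT replicate 1 (-0.61), DKO replicate 1 (-0.67) or DKO replicate 3 (-0.75), while 4 of the 5 R probes tested there were called lower.

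With CpG-B the genotypes differed far more. Against WT, 486 region probes differed in Irf5-KO cells, 293 higher and 193 lower, where 26.9% of all features were called (15.6% higher, 11.3% lower). In Lyn-KO cells 443 differed, 332 higher and 111 lower (25.6% of all features, 14.7% and 10.9%), and in DKO cells 877, 606 higher and 271 lower (46.4%, 26.9% and 19.5%). The median difference over all region probes was 0.01 (Irf5-KO), 0.10 (Lyn-KO) and 0.09 (DKO), against 0.02, 0.05 and 0.06 over all features. The splits into higher and lower hold for the scaling used, and the part of this offset in them was not tested. DKO differed from Irf5-KO at 549 probes, 388 higher and 161 lower (34% of all features, 19.4% and 14.7%), and from Lyn-KO at 593, 322 higher and 271 lower (33.5%, 18.5% and 15%). In each of these comparisons the share called was smaller for region probes than for all features, from 16.4% in Lyn-KO to 32.4% in DKO against WT. At 2-fold or more, DKO had 60 higher and 33 lower than WT (2.22% and 1.22%, against 3.83% and 2.59% of all features). Irf5-KO had 10 and 17 (0.369% and 0.628%, against 1.11% and 0.995%), and Lyn-KO 4 and 7 (0.148% and 0.259%, against 1.04% and 1.07%).

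**Figure D4:**
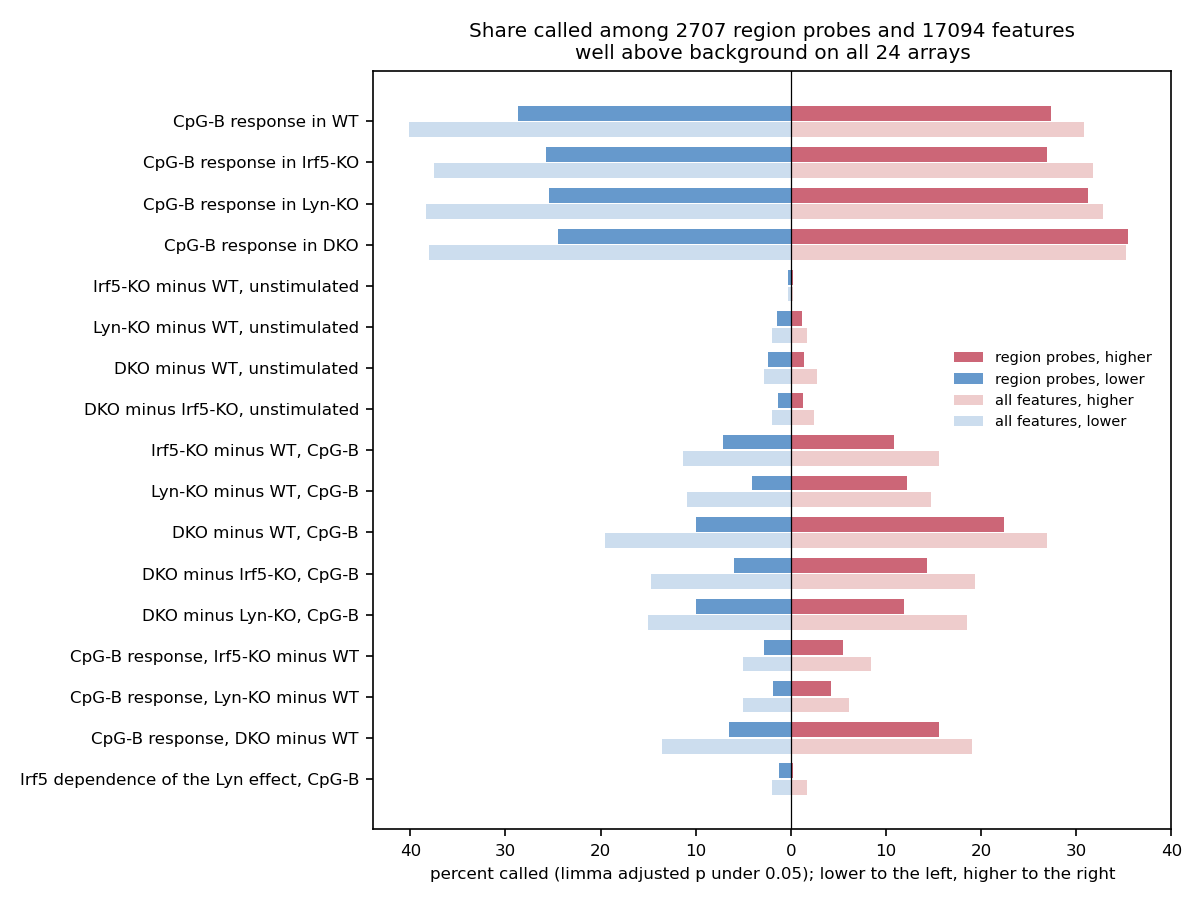
Percent of features called higher (right of 0) and lower (left of 0) at a limma adjusted p under 0.05 in each contrast with more than 1 call among region probes, for the 2707 region probes (dark bars) and all 17094 features measured on all arrays (pale bars). The pale bars are longer in both directions for each CpG-B response except the higher calls in DKO (35.5% of region probes and 35.2% of all features).

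A response that nearly vanished without Irf5 was on chr17:87674225-87682154. With CpG-B the R probe A_30_P01024125 read 0.04, -0.01 and -0.03 in WT and -0.33, -0.12 and -0.32 in Lyn-KO cells. It stayed at -1.98, -1.85 and -1.89 in Irf5-KO and at -1.94, -1.93 and -1.99 in DKO cells, close to the unstimulated arrays, which lay between -2.38 and -1.85. It rose by 1.90 ± 0.09 in WT and 1.80 ± 0.09 in Lyn-KO, but by 0.26 ± 0.09 in Irf5-KO cells (limma adjusted p 4.6e-13, 1.0e-12 and 0.013). The Irf5-KO call ended without unstimulated Irf5-KO replicate 1, where the change was 0.16 (adjusted p 0.11), and with quantile normalisation (0.18, adjusted p 0.079), normexp background (0.08, adjusted p 0.24) or only the arrays of the contrast (adjusted p 0.063). In DKO cells the change of 0.18 ± 0.09 was not called (adjusted p 0.078). The response differed from WT by -1.64 ± 0.12 in Irf5-KO and -1.72 ± 0.12 in DKO cells (adjusted p 6.5e-08 and 8.1e-09). All 6 R probes designed for this region were members, and 1 was measured on all arrays.

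The same order was found on chr15:85510625-85511265, where all 3 F probes were lower in Irf5-KO than in WT cells with CpG-B, by -1.36 to -1.19. A_30_P01025814 among them stood at -0.88, -0.80 and -0.92 in WT, at -2.24, -2.28 and -2.16 in Irf5-KO, at -0.71, -0.73 and -0.89 in Lyn-KO and at -2.29, -2.18 and -2.005 in DKO cells. The Irf5-KO and DKO arrays did not overlap with the others, which was a condition of choice in the contrasts that selected the probe. DKO was below Lyn-KO by -1.38 ± 0.11 (limma adjusted p 1.4e-08). On chr6:50339188-50409363 the R probe A_30_P01024598 responded in opposite directions, with a response of 1.12 ± 0.19 in Lyn-KO, -0.82 ± 0.19 in Irf5-KO and -1.01 ± 0.19 in DKO cells. Its Irf5-KO response differed from that of WT by -1.37 ± 0.27 (adjusted p 0.002), and the 3 R probes tested there were lower in Irf5-KO than in WT by -1.42 to -0.74. With CpG-B, 3 of the 7 plasmacytoid dendritic cell markers were lower in Irf5-KO than in WT cells and none was higher. The median over the 7 was -0.04, while the array means were 4.43 to 4.60 against 5.17 to 5.42. The part of these markers in the differences on chromosomes 17, 15 and 6 was not tested.

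Other regions were higher without Irf5. On chr13:60508775-60534625 the R probe A_30_P01031903 fell in WT and Lyn-KO cells, by -1.005 ± 0.10 and -1.09 ± 0.10, and rose in Irf5-KO and DKO cells, by 0.41 ± 0.10 and 0.38 ± 0.10. With CpG-B it read -0.35, -0.57 and -0.70 in WT but 0.74, 0.73 and 0.75 in Irf5-KO cells. The responses of Irf5-KO and WT differed by 1.42 ± 0.15 (limma adjusted p 2.6e-06). It was the only member among the 5 probes of its region and ending. A_30_P01019072, the discordant probe on chromosome 9 described above, fell less in Irf5-KO and DKO than in WT cells, by 0.99 ± 0.14 and 1.31 ± 0.14.

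A stretch of chromosome 6 with 4 neighbouring regions held F and R probes that were higher without Irf5. Whether the stretch lies near the targeted Irf5 gene was not checked. On chr6:31170350-31287353 the F probe A_30_P01026510 fell by -1.97 ± 0.22 in WT cells (limma adjusted p 1.6e-07), to -3.16, -3.01 and -2.44. It remained at -1.03, -1.58 and -1.66 in Irf5-KO and -0.87, -0.99 and -1.35 in DKO cells, higher than WT by 1.45 ± 0.22 and 1.80 ± 0.22. The 2 F probes of chr6:31233512-31241062, which lies inside it, were higher in Irf5-KO than in WT by 1.04 and 1.24. The R probes of chr6:31078802-31079644 and chr6:31115515-31168433 were higher by 0.29 to 0.62 and by 0.32 to 0.48, and all 6 were called. In Lyn-KO cells with CpG-B the 3 R probes of chr6:31078802-31079644 were also called higher than WT, by 0.21 to 0.64. The R probes of chr6:31115515-31168433 differed there by 0.09 to 0.30 and the F probes of the other regions by -0.07 to 0.35, none called.

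At the next pair of loci the signal with CpG-B was lower without Irf5 and higher without Lyn. On chr10:69669025-69686275 the R probe A_30_P01018532 reached 3.38, 3.22 and 3.12 in WT, 1.63, 1.63 and 1.66 in Irf5-KO, 3.85, 4.10 and 4.21 in Lyn-KO and 2.59, 2.49 and 2.72 in DKO cells. The 4 genotypes did not overlap, which was a condition of choice in the contrasts that selected the probe. Against WT it differed by -1.60 ± 0.16 (Irf5-KO), 0.81 ± 0.16 (Lyn-KO) and -0.64 ± 0.16 (DKO) (limma adjusted p 6.0e-07, 0.001 and 0.0032). Of the 5 R probes designed for this region, 1 was a member. The response differed from WT by -1.07 ± 0.23 in Irf5-KO and 1.10 ± 0.23 in Lyn-KO cells. In DKO cells the response differed by 0.10, which was not called. The DKO signal was already called lower than WT without stimulation, by -0.74.

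On chr11:16831925-16851121 both tested R probes gave the same order. A_30_P01026217 fell from 2.08, 1.80 and 1.79 to -0.36, -0.40 and -0.36 in WT cells, and to -1.66, -1.95 and -1.94 in Irf5-KO, 0.55, 0.38 and 0.54 in Lyn-KO and -0.91, -1.10 and -0.87 in DKO cells. With CpG-B it differed from WT by -1.47 ± 0.09, 0.87 ± 0.09 and -0.59 ± 0.09 in these genotypes (limma adjusted p 6.7e-10, 6.7e-07 and 2.1e-05). The second probe, A_30_P01030698, differed by -1.48 ± 0.09 in Irf5-KO and 0.89 ± 0.09 in Lyn-KO cells. Both probes were already called higher in unstimulated Lyn-KO than in WT cells, by 0.32 to 0.39. Their Lyn-KO responses differed from those of WT by 0.50 to 0.54, both called. Plasmacytoid dendritic cell markers had the same order of array means with CpG-B, with 4.98 to 5.13 in DKO and 5.71 to 5.89 in Lyn-KO cells beside the values of Irf5-KO and WT given above. By single marker the order was not shared. Against WT, 3 of the 7 were called higher and 2 lower in DKO, with a median of 0.24. In Lyn-KO 4 were higher and none lower (median 0.30), and in Irf5-KO 3 were lower and none higher (median -0.04). The part of these markers in the probe differences was not tested.

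A transcript that differed with Lyn was on chr6:116123643-116124550, a region of 908 bp with 3 F probes. A_30_P01021866 was at 7.28 to 7.45 on all 12 unstimulated arrays. With CpG-B it read 8.03, 8.03 and 8.07 in WT and 8.44, 8.59 and 8.57 in Irf5-KO cells, but 6.76, 6.75 and 6.78 in Lyn-KO and 6.97, 6.77 and 6.83 in DKO cells. CpG-B thus raised it by 0.64 ± 0.05 in WT and 1.13 ± 0.05 in Irf5-KO and lowered it by -0.66 ± 0.05 in Lyn-KO and -0.46 ± 0.05 in DKO cells. The response in Lyn-KO differed from WT by -1.30 ± 0.07 (limma adjusted p 5.9e-09), and all 3 probes were lower in Lyn-KO than in WT cells with CpG-B, by -1.28 to -1.16.

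On chr3:87757295-87774970 the F probe A_30_P01018307 reached -0.08, -0.14 and -0.12 in WT cells with CpG-B and was lower in each mutant, by -0.99 ± 0.12 (Irf5-KO), -1.28 ± 0.12 (Lyn-KO) and -1.72 ± 0.12 (DKO) (limma adjusted p 3.3e-06, 1.9e-07 and 8.3e-10). The region is not uniform, since its 4 tested F probes responded by -0.23 to 2.45 in WT cells. On chr2:128211990-128215223 the R probe A_30_P01019146 was lower in Lyn-KO than in WT by -1.11 ± 0.15 and higher in Irf5-KO by 0.82 ± 0.15 (adjusted p 1.6e-05 and 0.00035). Its DKO arrays, at -0.69, -0.43 and -0.42, overlapped those of WT, at -0.58, -0.48 and -0.35. On chr11:96111499-96126224 the R probe A_30_P01019010 ran the other way, at 1.28, 1.31 and 1.34 in Lyn-KO against -0.10, -0.24 and -0.50 in WT cells, a difference of 1.59 ± 0.13, with -0.63 ± 0.13 in Irf5-KO (adjusted p 7.2e-08 and 0.0017). The other tested R probe of that region, A_30_P01030733, differed from WT by 0.22 in Lyn-KO and by 0.00 in Irf5-KO, neither called. With CpG-B, 3 of the 5 B cell markers were lower in Lyn-KO than in WT cells, at a median of -1.03 over the list, and their part in the Lyn-KO differences was not tested.

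Some differences were larger in DKO than in either single knockout. On chr2:157236070-157249445 the R probe A_30_P01026842 was at 1.15 to 1.73 on the unstimulated arrays. With CpG-B it read 2.25, 2.28 and 2.16 in WT, 3.37, 3.14 and 2.95 in Irf5-KO, 3.27, 3.00 and 3.08 in Lyn-KO and 4.36, 4.42 and 4.49 in DKO cells. The DKO arrays were above all others, and those of Irf5-KO and Lyn-KO overlapped each other. The difference from WT was 0.92 ± 0.13, 0.88 ± 0.13 and 2.19 ± 0.13 (limma adjusted p 3.0e-05, 5.0e-05 and 1.5e-10), and the DKO response exceeded that of WT by 2.23 ± 0.18 (adjusted p 4.0e-08). The second tested R probe of the region, A_30_P01033669, differed far less, by 0.46 ± 0.09 in DKO (adjusted p 0.0005), and by 0.07 in Irf5-KO and 0.22 in Lyn-KO, which were not called.

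The R probe A_30_P01025509 on chr10:74325583-74396665 showed the reverse, with DKO at -1.91, -2.08 and -2.11 and WT at -0.67, -0.69 and 0.17 with CpG-B. The difference was -1.64 ± 0.17, and the DKO response was lower than that of WT by -1.55 ± 0.24 (limma adjusted p 2.5e-07 and 6.4e-05). On chr19:53517903-53540753 the R probe A_30_P01030158 fell by -1.91 ± 0.21 in WT cells, to -2.88, -1.89 and -3.19, but ended at -1.13, -1.06 and -1.09 in DKO cells, a difference of 1.56 ± 0.21 (adjusted p 7.5e-06).

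On chr5:74487385-74497428, with 9 tested F probes, A_30_P01031327 was lower with CpG-B in Lyn-KO by -0.79 ± 0.13 and in DKO cells by -1.17 ± 0.13 (limma adjusted p 0.0002 and 8.4e-07). It was lower in DKO than in Irf5-KO by -1.55 ± 0.13. The 9 probes were not uniform: all were called between DKO and WT, from -1.18 to 0.55, and A_30_P01032580 was higher in DKO by 0.55 ± 0.15 (adjusted p 0.005). On chr4:116791819-116798263 the R probe A_30_P01025038 stood at -0.88, -1.13 and -0.94 in WT, -0.20, -0.22 and -0.40 in Irf5-KO, -1.58, -1.67 and -1.39 in Lyn-KO and -1.71, -1.98 and -1.84 in DKO cells. Lyn-KO differed from WT by -0.57 ± 0.10 and DKO from Irf5-KO by -1.57 ± 0.10. The difference between these 2 values was -1.004 ± 0.14 (adjusted p 0.00046). Without stimulation the 2 tested R probes of the region were lower in Lyn-KO than in WT by -0.46 to -0.31, of which 1 was called. Their Lyn-KO responses differed from those of WT by -0.30 to -0.10, not called. B cell markers were lower in DKO than in Irf5-KO cells with CpG-B at all 5 genes, with a median of -2.51. Of the 6 neutrophil markers measured on all arrays, 4 were lower and 1 higher in DKO than in WT cells with CpG-B, and the array mean over the 7 genes tested lay between 0.15 and 1.23 in DKO and between 1.27 and 1.46 in WT. Of the 3 basophil and mast cell markers measured on all arrays, 2 were higher in DKO, and the array means over the 4 genes tested were -0.55 to 0.01 in DKO and -1.81 to -0.96 in WT cells. The part of these markers in the DKO differences was not tested.

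**Figure D5:**
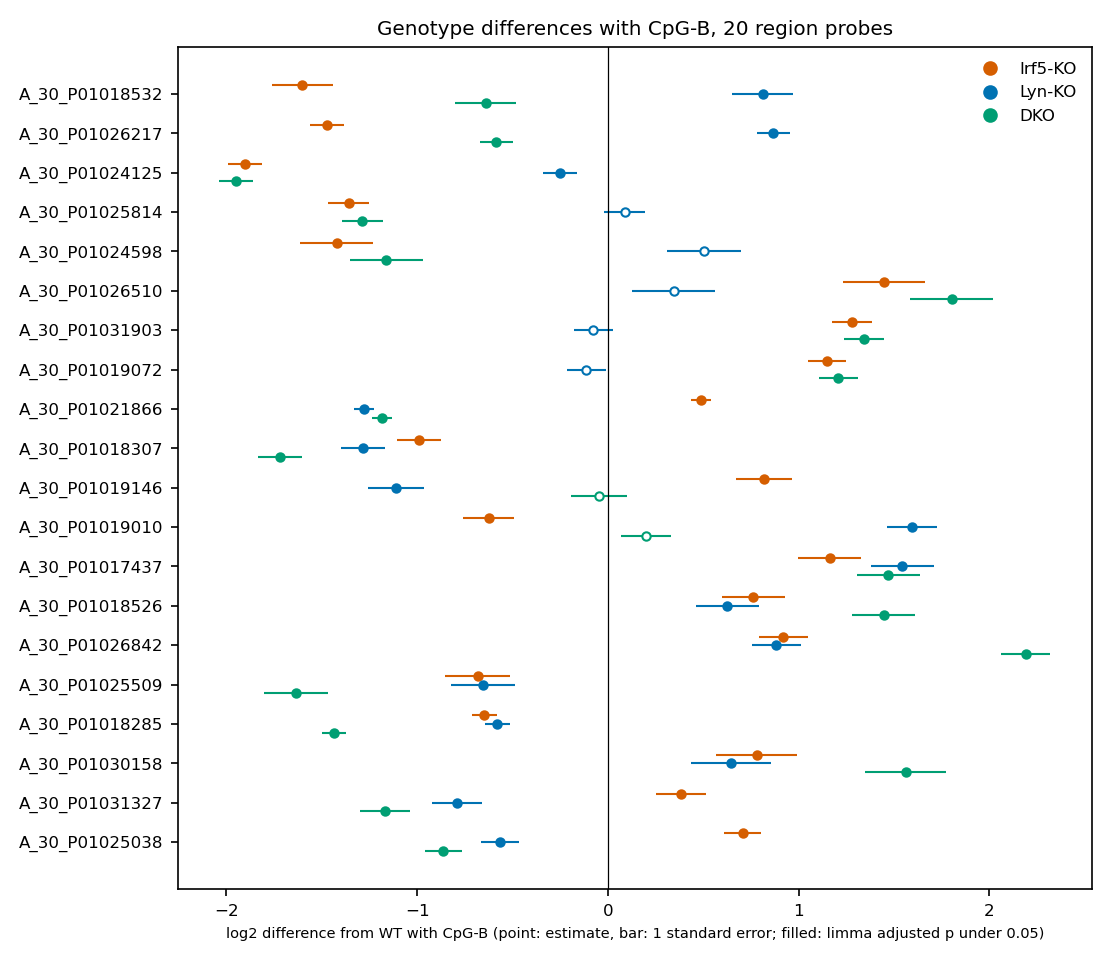
Log2 difference from WT with CpG-B for 20 region probes named in the text, in Irf5-KO (orange), Lyn-KO (blue) and DKO cells (green); bars are 1 SE and filled points have a limma adjusted p under 0.05. A_30_P01024125 has Irf5-KO and DKO together near -1.90, A_30_P01021866 has Lyn-KO and DKO together at -1.28 and -1.18, and A_30_P01026842 has DKO at 2.19.

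Tests of the difference between responses called 224 region probes for Irf5-KO against WT, 148 higher and 76 lower, where 13.5% of all features were called (8.41% higher, 5.08% lower). For Lyn-KO they called 167, 115 higher and 52 lower (11.2% of all features, 6.16% and 5.04%), and for DKO 600, 423 higher and 177 lower (32.4%, 19% and 13.5%). Scaled to the median of the probes measured on all arrays, the Irf5-KO split was 118 higher and 97 lower. The median difference of the responses over region probes was 0.03 (Irf5-KO), 0.07 (Lyn-KO) and 0.11 (DKO), against 0.04, 0.03 and 0.07 over all features. The Lyn effect depended on Irf5 at 40 region probes with CpG-B, 6 higher and 34 lower (3.63% of all features, 1.65% and 1.98%). That count was 25 without DKO CpG-B replicate 1 and 26 without WT CpG-B replicate 2. Probes of the same region and ending agreed less in these contrasts than in the response itself, with an r of 0.64 for Irf5-KO, 0.58 for Lyn-KO and 0.69 for DKO against WT with CpG-B over the same 2090 pairs. Across opposite endings the values were 0.17, 0.24 and 0.32.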

How the data were processed

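Total RNA of 24 cultures was hybridised to Agilent arrays in 1 colour. Per the file headers, the deposited scanner output holds processed signals, an intensity that the scanner software had background-subtracted and corrected for spatial trends, with no scaling between arrays. A deposited table of the series holds log2 values of the same arrays and served as an alternative. Here log2 of the processed signal was centred on the 75th percentile of its array. Each array had 62976 spots, of which 59305 were non-control spots for 55681 probes; 4351 spot values marked as outliers were left out. A probe was kept when well above background on all 3 arrays of a group, which left 26642 probes. Each unnamed probe was a feature, and a named gene had its probe with the highest mean, giving 22802 features. Missing values numbered 24, of which 11 fell on region probes.

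limma 3.58.1 (R 4.3.3) was fitted with 1 mean per group on all 24 arrays, and p-values were adjusted by Benjamini-Hochberg over all features within each of 19 contrasts, 2-sided, at 0.05. The script was tested on simulated data. Region probes were tested only where well above background on all arrays, as detection had chosen them. The text could name, per contrast, the 8 called probes with the largest change in each direction whose groups did not overlap, the 8 with the largest lower bound in each CpG-B response among those detected in 1 condition only, and probes on both endings of a region. Non-overlap in the contrast that selected a probe is therefore no result. Which of these are described, and the neighbouring regions, were chosen after their values were seen. Members and lists were chosen with earlier results of these data known. For lower bounds, a dim group took, per array, the greater of the measured signal and the weakest signal that still passed the background flag.

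Each of the 3 slides carried 1 array per group, all with the same replicate number. The number was used as a block only as an alternative. Tests that need gene positions in mm9, and probe sequences, were not used here. The labels call the replicates biological, without naming animals. The number of arrays limits the precision.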

Additional observations from a re-analysis of the deposited data

Results flagged for a closer look

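Responses to CpG-B that differed between genotypes, by a test of the difference itself in limma, are gathered here. They numbered 224 region probes for Irf5-KO against WT, 167 for Lyn-KO and 600 for DKO. The difference between the Lyn effects without and with Irf5 was called at 1 region probe without stimulation and at 40 with CpG-B.

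For Irf5-KO against WT, the differences of the log2 response were -1.07 for A_30_P01018532, -0.97 for A_30_P01024344, -1.22 for A_30_P01026217, -1.64 for A_30_P01024125 and -1.37 for A_30_P01024598. They were positive for A_30_P01019306 (1.04), A_30_P01019072 (0.99), A_30_P01026510 (1.31) and A_30_P01031903 (1.42).

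For Lyn-KO against WT, the response was larger by 1.10 for A_30_P01018532, 1.52 for A_30_P01019306, 0.54 for A_30_P01026217, 1.15 for A_30_P01019010 and 1.19 for A_30_P01018252. For A_30_P01021866 it differed by -1.30.

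For DKO against WT, the differences were 1.70 for A_30_P01018526, 1.60 for A_30_P01019306, 1.31 for A_30_P01019072, 2.23 for A_30_P01026842, 1.60 for A_30_P01030158, 1.65 for A_30_P01018252 and 1.07 for A_30_P01023365. They were -1.72 for A_30_P01024125, -1.10 for A_30_P01021866 and -1.55 for A_30_P01025509.

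The Lyn effect without Irf5 differed from that with Irf5 by -1.52 for A_30_P01017437 without stimulation. With CpG-B the difference was -1.24 for A_30_P01017437, -0.39 for A_30_P01021866 and -1.004 for A_30_P01025038.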

How the results depend on the processing

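Of the 158 called changes of named probes, none changed sign under any setting, and 1552 of 1580 values kept their call. The other 28 values did not, at 19 of the 158 changes. Of the 1122 values with 1 array left out, 1107 kept the call and 15 did not, at 7 changes. As named probes were chosen among the largest called changes, both tallies hold for that choice and not for region probes at large. Counts of called region probes stayed within 1.5 times for 166 of 190 values, and the cause of the other 24 was not tested unless fewer arrays or more features explain it by construction. Without the filter on dim probes, more features entered the fit and counts fell to 4 (Irf5-KO), 38 (Lyn-KO) and 39 (DKO) against WT and 31 for DKO against Irf5-KO, all unstimulated, to 313 (Irf5-KO) and 261 (Lyn-KO) against WT with CpG-B, to 110 and 71 for the response differences of Irf5-KO and Lyn-KO, and to 10 for the Irf5 dependence of the Lyn effect with CpG-B. With only the arrays of each contrast, the 4 unstimulated counts were 0, 13, 16 and 44, and the Irf5 dependence was called at 0 probes without and 8 with CpG-B. For DKO against Lyn-KO, unstimulated, the count of 0 became 1 with quantile normalisation, 1 with normexp background, 1 in the series table and 2 with the replicate block. The unstimulated Irf5 dependence, 1 probe, became 5 with quantile normalisation, 3 with median scaling, 3 with the replicate block and 4 with a trended, robust spread, and with normexp the dependence with CpG-B was 24. The alternatives for the Irf5 dependence were added after seeing the data.

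Leaving out 1 array gave 1385 to 1487 calls for the response in WT, 1303 to 1361 in Irf5-KO, 1403 to 1509 in Lyn-KO and 1483 to 1581 in DKO. For the unstimulated comparisons it gave 4 to 23, 48 to 80 and 46 to 149 against WT, 40 to 63 for DKO against Irf5-KO and 0 to 3 for DKO against Lyn-KO. With CpG-B it gave 397 to 432 (Irf5-KO), 312 to 433 (Lyn-KO) and 747 to 838 (DKO) against WT, 428 to 500 for DKO against Irf5-KO and 501 to 549 for DKO against Lyn-KO. For response differences it gave 186 to 223, 115 to 190 and 519 to 665, and for the Irf5 dependence 1 to 3 and 25 to 50. The comparison of regions with their nearest named genes was not run, since gene positions in mm9 were not used here.

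Deviations from the group means correlated above 0.1 in 25 of 84 pairs of arrays with the same replicate number (median 0.05), against 3 of 168 pairs with different numbers (median -0.03). Arrays with the same number, which shared a slide, were thus more alike, although not every pair passed 0.1. The main fit had no pairing, so its SEs and p-values leave this likeness out. The replicate block raised the counts, for example to 1578 for the response in WT, 134 for DKO against WT without stimulation, 963 with CpG-B and 54 for the Irf5 dependence of the Lyn effect with CpG-B.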
